A study of Mus musculus with 8 samples.

Results

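White fat cell genes in the distal colon are the subject here: Adipoq, Plin1, Plin4, Fabp4, Cfd, Cidec, Lipe, Lpl, Retn and Pck1, chosen by name as a measure of fat attached to the colon piece. All 10 were found among the 16130 genes of the count table, and 9 had enough counts to be tested, Retn being the exception. Total RNA came from the distal colon of mice of the genotype Tcf4Het/+ ApcMin/+, which all 8 libraries share. ApcMin is a truncating allele of the tumour suppressor Apc that gives rise to intestinal tumours. The enriched group (EE, n = 4) had lived for 4 months in enriched housing, and the non-enriched group (NE, n = 4) for 4 months in conventional housing. The labels give neither the age of the animals nor how the colon was trimmed of surrounding tissue, and they do not say whether each library is a separate animal, so p-values measure the spread between these samples.

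White fat cells store triglyceride in a large lipid droplet coated by perilipins, take up fatty acids released from circulating lipoproteins by lipoprotein lipase, and release them again through hormone-sensitive lipase. They also secrete hormones and other proteins into the blood. Around the mouse colon such cells lie in the mesentery, outside the muscle wall. Some of these genes are also used by other cells of the gut: Fabp4 by small blood vessels, Lpl by muscle and macrophages, and Pck1 by the absorptive epithelium.

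Library totals ran from 4735764 to 10586851 counts. EE 4 had the lowest value of the 8 libraries in 26% of all tested genes, a share that was not computed for the other libraries. In the authors' deposited table a positive log2 fold change went with higher counts in NE, its sign being opposite to EE minus NE for 97.8% of tested genes, and its header states no direction. Values are CPM, read counts scaled to library size with the TMM method, and fold changes are EE minus NE on the log2 scale with the standard error (SE) of the fit.

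Promoter windows of 3 members are shown first because their genes differ in what follows: Adipoq and Plin1 had the highest coefficients of variation fitted by edgeR among the 9 tested members, while Pck1 had another order of libraries. The windows are from RefSeq on GRCm38.p6, run from 250 bases before to 50 bases after the start of the gene, and are printed on the strand of the gene. Capitals mark the letters CCAAT in Adipoq, the C/EBP element TTGCNNAA in Plin1 and the cAMP response element TNACGTCA in Pck1, on either strand. The Adipoq window is chr16:23146286-23146585 on the plus strand, that of Plin1 chr7:79732727-79733026 on the minus strand and that of Pck1 chr2:173152823-173153122 on the plus strand.
Adipoq: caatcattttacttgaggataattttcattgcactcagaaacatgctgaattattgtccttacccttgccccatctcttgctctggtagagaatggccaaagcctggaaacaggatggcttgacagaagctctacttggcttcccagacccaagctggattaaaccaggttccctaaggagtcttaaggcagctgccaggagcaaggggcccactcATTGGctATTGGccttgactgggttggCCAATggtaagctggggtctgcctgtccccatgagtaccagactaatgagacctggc
Plin1: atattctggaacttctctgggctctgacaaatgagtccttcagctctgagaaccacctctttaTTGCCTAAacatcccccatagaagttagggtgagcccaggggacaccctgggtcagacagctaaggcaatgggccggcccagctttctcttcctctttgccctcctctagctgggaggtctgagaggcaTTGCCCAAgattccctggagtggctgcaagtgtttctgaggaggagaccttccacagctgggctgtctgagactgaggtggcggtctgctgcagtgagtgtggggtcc
Pck1: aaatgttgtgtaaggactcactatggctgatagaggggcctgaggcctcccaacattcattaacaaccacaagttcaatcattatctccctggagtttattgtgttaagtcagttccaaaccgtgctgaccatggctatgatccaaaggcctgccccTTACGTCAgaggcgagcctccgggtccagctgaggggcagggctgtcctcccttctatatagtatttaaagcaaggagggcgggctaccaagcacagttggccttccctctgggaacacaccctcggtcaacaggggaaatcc

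Windows were found for 8 of the 10 members, 10 windows in all, since Cidec and Lipe have more than 1 start; Fabp4 and Lpl are named only. CCAAT was present in 2 of the 10 windows, those of Adipoq and Plin4, and in 37.4% of all 32851 promoter windows. TTGCNNAA was present in 2, those of Plin1 and Cidec, against 10.8% of all windows. TNACGTCA was present only in Pck1 among the members, with its first base 93 bases before the start, against 2.93% of all windows. The nuclear receptor element AGGTCA (16.3% of all windows), its direct repeat with a single base between the copies (0.0396%) and TATAAA (13.6%) were in 0 of the 10. Both strands were searched. These matches are letters in a window, not measured sites.

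The transcripts of Adipoq, Cfd and Retn, whose proteins fat cells secrete, were highest in library 2 of each group and at or near 0 in EE 4. Adipoq, which encodes the fat cell hormone adiponectin (chromosome 16, 23146536 to 23158028 on GRCm38, plus strand), had 1.91, 13.6, 3.17 and 0 CPM in EE 1 to EE 4, against 1.74, 16.2, 2.25 and 7.46 CPM in NE 1 to NE 4. EE 2 and NE 2 were high, EE 1, NE 1, EE 3 and NE 3 were low together, and the groups overlapped. In EE 4 Adipoq had 0 counts, which allows up to 0.476 CPM (3 counts), and the mean of the NE libraries was at least 14.5-fold higher. The limits given for counts of 0 cover counting error only. In bulk RNA, fewer fat cells and less RNA per fat cell cannot be told apart.

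Cfd, the gene of adipsin (complement factor D), a serine protease that fat cells release in large amounts (chromosome 10, 79890853 to 79892655, plus strand), showed a similar pattern. It was at 9.77, 53.6, 15.1 and 0.634 CPM in EE 1 to EE 4, against 13.1, 53.0, 18.9 and 28.8 CPM in NE 1 to NE 4. Library 2 of each group stood at nearly the same level, and EE 4, with 4 counts, lay below every other library. Retn, the gene of the hormone resistin (chromosome 8, 3655770 to 3660110, plus strand), had 74 counts over the 8 libraries. Its levels were 0.637, 2.49, 0.604 and 0 CPM in EE 1 to EE 4, against 0.474, 4.30, 0.938 and 1.82 CPM in NE 1 to NE 4. It was again highest in library 2 of each group, at too few counts for the test. For Retn, and likewise for Plin1, 0 counts in EE 4 cannot be told from the level of NE 1, which is below the limit of 0.476 CPM.

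Lipid droplet proteins differed among themselves. Plin1, the coat protein of the fat cell droplet (chromosome 7, 79720218 to 79732903, minus strand), was at 0.637, 6.89, 1.21 and 0 CPM in EE 1 to EE 4, against 0.474, 5.16, 2.06 and 3.32 CPM in NE 1 to NE 4. Its pattern resembled that of Adipoq, with library 2 of each group high and EE 1 and NE 1 low. Cidec, which enlarges droplets by fusion (chromosome 6, 113424634 to 113435760, minus strand), was at 14.2, 16.5, 3.93 and 2.38 CPM in EE 1 to EE 4, against 8.05, 20.9, 8.45 and 13.4 CPM in NE 1 to NE 4. Here EE 1 lay near EE 2, unlike in Adipoq, and EE 3 lay near EE 4. Plin4, a perilipin that coats small droplets and is also present in muscle (chromosome 17, 56100591 to 56109803, minus strand), was at 12.1, 21.1, 6.19 and 5.55 CPM in EE 1 to EE 4, against 15.3, 32.4, 20.6 and 24.5 CPM in NE 1 to NE 4. Only EE 2 reached into the NE range. The gene overlaps Hdgfl2 on the opposite strand, and since the strand setting of the counting is not given in the sources used here, the 2 may share reads.

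**Figure D1:**
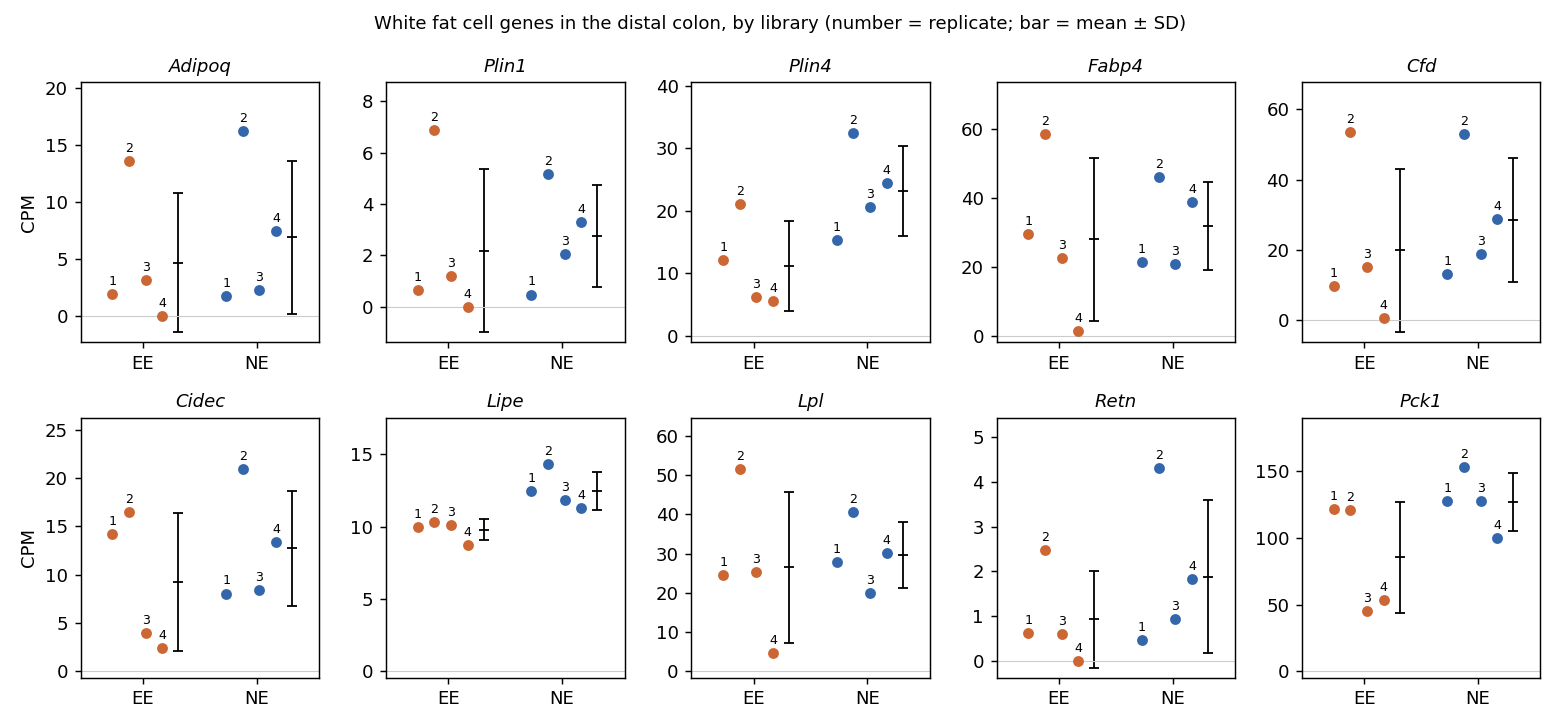
CPM of the 10 white fat cell genes in each library (points numbered by replicate, EE at left, NE at right), with the mean and SD of each group beside them. Library 2 is the highest of its group for 9 of 10 genes in EE, all but Pck1, and for 10 of 10 in NE, and EE 4 is at 0 for Adipoq, Plin1 and Retn.

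Genes of fatty acid uptake and handling kept part of the pattern of Adipoq. Fabp4, the carrier of fatty acids in the fat cell cytosol (chromosome 3, 10204088 to 10208576, minus strand), was at 29.5, 58.4, 22.5 and 1.43 CPM in EE 1 to EE 4, against 21.3, 46.2, 20.7 and 38.8 CPM in NE 1 to NE 4. Lpl, the gene of lipoprotein lipase (chromosome 8, 68880491 to 68907448, plus strand), was at 24.4, 51.5, 25.2 and 4.76 CPM in EE 1 to EE 4, against 27.8, 40.6, 19.99 and 30.2 CPM in NE 1 to NE 4. In both genes EE 2 was the highest of the 8 libraries and EE 4 the lowest. The lowest of the other 7 libraries exceeded EE 4 by 14.5-fold in Fabp4 and by 4.20-fold in Lpl.

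Lipe and Pck1 varied in another way. Lipe, the gene of hormone-sensitive lipase (chromosome 7, 25379527 to 25398710, minus strand), was at 9.98, 10.3, 10.1 and 8.72 CPM in EE 1 to EE 4, against 12.5, 14.3, 11.8 and 11.3 CPM in NE 1 to NE 4. It was nearly level within each group and was the 1 member whose groups did not overlap, where 2.02% of all tested genes were lower in EE without overlap and 4.89% were apart in either direction. The antisense gene 4732471J01Rik lies over Lipe and may share its reads. Pck1, which turns oxaloacetate into phosphoenolpyruvate for the synthesis of glucose or, in fat cells, glycerol (chromosome 2, 173153048 to 173159273, plus strand), was at 122, 121, 45.0 and 53.6 CPM in EE 1 to EE 4, against 128, 153, 128 and 99.8 CPM in NE 1 to NE 4. EE 3 and EE 4 were low, the other 6 libraries lay between 99.8 and 153 CPM, and EE 2 did not exceed EE 1.

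Per kilobase of the longest principal transcript in GENCODE M21, Pck1 had the highest level, with 32.1 ± 15.7 CPM per kb in EE and 47.8 ± 8.18 CPM per kb in NE (SD, n = 4 each). Fabp4 followed with 31.2 ± 26.3 in EE and 35.4 ± 14.2 in NE, and Cfd with 21.4 ± 25.3 in EE and 30.9 ± 19.1 CPM per kb in NE. Neighbours among these 3 differed by less than the larger of their SDs in both groups. The SDs are between libraries that all genes share, so they do not test the order of the genes. Lpl was at 6.43 ± 4.66 in EE and 7.20 ± 2.06 CPM per kb in NE, and Cidec at 5.38 ± 4.14 in EE and 7.39 ± 3.49 CPM per kb in NE. Adipoq was at 3.61 ± 4.71 in EE and 5.35 ± 5.19 CPM per kb in NE, Lipe at 2.71 ± 0.201 in EE and 3.45 ± 0.369 CPM per kb in NE, and Plin4 at 1.95 ± 1.25 in EE and 4.03 ± 1.25 CPM per kb in NE. In this middle range, too, neighbours differed by less than the larger of their SDs. Lowest were Retn, at 0.819 ± 0.946 in EE and 1.65 ± 1.5 CPM per kb in NE, and Plin1, at 0.775 ± 1.13 in EE and 0.977 ± 0.703 CPM per kb in NE.

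Set against each other, most of the 10 genes had the same libraries at both ends, though EE 2 had only rank 5 from the top for Lipe and Pck1. NE 2, EE 2 and EE 4 are named from the members' own values, so the shares of all genes given beside them are a description. All 10 were highest in NE 2 or EE 2, 6 in NE 2 and 4 in EE 2, where NE 2 or EE 2 was the highest library for 16.5% of all tested genes. Of the 10, 9 were lowest in EE 4, against 26% of all tested genes, and Pck1 was lowest in EE 3. The summed level of the members was 225, 355, 133 and 77.1 CPM in EE 1 to EE 4, against 229, 386, 233 and 259 CPM in NE 1 to NE 4. Pck1 made up a large share of this sum. Without Pck1, a choice made after seeing the data, it was 103, 234, 88.1 and 23.5 CPM in EE 1 to EE 4, against 101, 233, 106 and 159.6 CPM in NE 1 to NE 4. The median of centred log2 CPM over the 9 tested members was −0.14, 1.1, −0.12 and −2.26 in EE 1 to EE 4, against −0.03, 1.12, 0.10 and 0.72 in NE 1 to NE 4. By this measure EE 2 and NE 2 were alike, EE 1, EE 3, NE 1 and NE 3 were alike, NE 4 was intermediate and EE 4 lay far below.

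**Figure D2:**
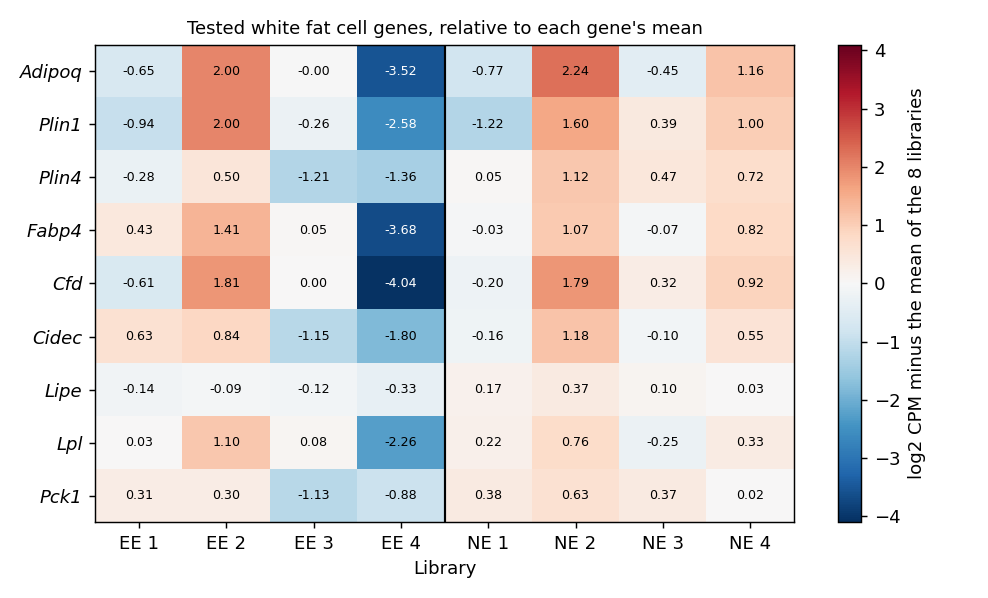
Log2 CPM of the 9 tested members, each set against its own mean of all libraries (EE libraries left of the line, NE right of it; red above the mean, blue below). The EE 4 column is lowest for Cfd (−4.04), Fabp4 (−3.68) and Adipoq (−3.52), while Lipe stays between −0.33 and 0.37 in all 8 libraries.

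The spread within groups was large for most members. The biological coefficient of variation fitted by edgeR was 0.995 for Adipoq, 0.937 for Plin1, 0.813 for Cfd, 0.681 for Fabp4, 0.539 for Cidec and 0.500 for Lpl, against a median of 0.192 over all tested genes. These 6 values lay at or above the percentile 98.0 of all tested genes. Plin4 (0.387) and Pck1 (0.312) lay at the percentiles 93.2 and 85.3, and Lipe (0.152) at 22.1. Within the NE group alone, the highest library exceeded the lowest by 9.33-fold in Adipoq, by 10.9-fold in Plin1 and by 4.05-fold in Cfd, but by 1.27-fold in Lipe.

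The comparison of enriched with conventional housing asks whether the members differed between EE and NE beyond this spread. None of the 9 tested members passed edgeR's quasi-likelihood test at a Benjamini-Hochberg adjusted p under 0.05, as 0% of all 14311 tested genes did. At an unadjusted p under 0.05 there was 1 member, Plin4, where 9.48% of all tested genes reached that level and 3.75% did so with a lower value in EE, and DESeq2 and limma-voom called 0 members. DESeq2 called 12 genes in all (0.0839%) and limma-voom 0 (0%). All 9 log2 fold changes were negative, with a median of −0.48, where 49.7% of all tested genes were negative with a median of 0.00. The members share the same 8 libraries, so their 9 signs are not separate observations.

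Plin4 had the largest difference of the 9 in the edgeR fit on all 8 libraries, though not with limma-voom (−1.26, against −1.60 for Cfd) or without EE 2 (−1.57, against −2.11 for Plin1). Plin4 averaged 11.2 ± 7.19 CPM in EE and 23.2 ± 7.20 CPM in NE (SD, n = 4 each), and its difference was −1.06 log2 units (SE 0.40, adjusted p = 0.520 by edgeR). Pck1 averaged 85.5 ± 41.9 CPM in EE and 127 ± 21.8 CPM in NE, a difference of −0.58 log2 units (SE 0.31, adjusted p = 0.544). Lipe had the smallest error, with 9.79 ± 0.728 CPM in EE and 12.5 ± 1.33 CPM in NE and a difference of −0.35 log2 units (SE 0.16, adjusted p = 0.520). In the authors' deposited table, where positive values go with higher counts in NE, Plin4 had a log2 fold change of 0.81 with an FDR of 0.00284 and Pck1 one of 0.64 with an FDR of 0.0429. Those 2 members were past 0.05 there, as were 2.39% of all genes in the authors' deposited table (1.32% with a positive value), and the remaining 8 were not.

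For the genes most restricted to fat cells the difference was small beside its error. Adipoq averaged 4.67 ± 6.09 CPM in EE and 6.91 ± 6.71 CPM in NE, a difference of −0.57 log2 units (SE 0.98, adjusted p = 0.83). Plin1 averaged 2.18 ± 3.18 CPM in EE and 2.75 ± 1.98 CPM in NE, a difference of −0.36 log2 units (SE 0.94, adjusted p = 0.891). Cfd averaged 19.8 ± 23.3 CPM in EE and 28.5 ± 17.6 CPM in NE, a difference of −0.53 log2 units (SE 0.81, adjusted p = 0.802). At this spread a difference of the size measured was not detectable. Cidec, Fabp4 and Lpl had log2 fold changes of −0.48 (SE 0.56), −0.19 (SE 0.67) and −0.17 (SE 0.51), with adjusted p of 0.742, 0.920 and 0.908. Retn averaged 0.932 ± 1.08 CPM in EE and 1.88 ± 1.71 CPM in NE.

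The direction of Adipoq, Plin1, Fabp4 and Lpl rested on single libraries. Without EE 4, 7 of 10 members tested were negative, against 49.2% of all tested genes, the median was −0.14, and Plin1, Fabp4 and Lpl had positive log2 fold changes of 0.08, 0.22 and 0.19. Without NE 2, 5 of 9 were negative, the median was −0.04, and Adipoq, Plin1, Fabp4 and Lpl were at 0.30, 0.13, 0.05 and 0.03. Without EE 2 the median was −0.93, and with limma-voom it was −1.02. Plin4, Cfd, Cidec, Lipe and Pck1 stayed negative in each of the fits run, Cfd by as little as −0.04 without NE 2.

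**Figure D3:**
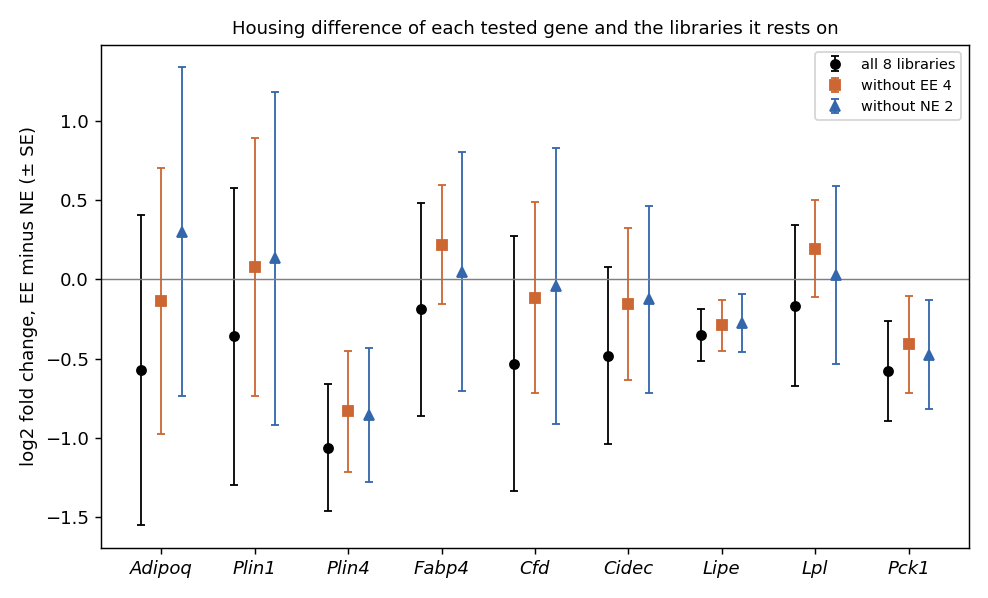
Log2 fold change (EE minus NE, ± SE of the edgeR fit) of each tested member with all 8 libraries, without EE 4 and without NE 2. Plin4 (−1.06), Lipe (−0.35) and Pck1 (−0.58) stay below 0 in all 3 fits, while Plin1, Fabp4 and Lpl lie above 0 in both fits that leave a library out.

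Other genes of fat cell biology were followed in 5 lists: droplet genes, lipolysis and uptake, synthesis, transcription factors, and adipokines with their receptors. Over these 5 and the 9 lists of paralogs and cell types described after them, 119 distinct genes that are not members were tested. None passed with edgeR, DESeq2 or limma-voom, and 9 had an unadjusted edgeR p under 0.05, 4 higher and 5 lower in EE, which is 7.56% where 9.48% of all tested genes reached that level. Their values are therefore given as levels and not as calls.

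Of the droplet genes 7 of 10 were tested, all 7 with a negative log2 fold change (median −0.14). Plin2, the perilipin found in most cell types, was at 128 ± 10.8 CPM in EE and 141 ± 10.7 CPM in NE, and Abhd5, the activator of the first triglyceride lipase, at 52.3 ± 9.31 CPM in EE and 60.7 ± 4.95 CPM in NE. G0s2, an inhibitor of that lipase, was at 39.6 CPM in EE 2 and between 8.49 and 17.2 CPM in the other EE libraries, against 13.9 to 34.5 CPM in NE. Unlike Plin1, Plin2 stayed between 112 and 154 CPM in all 8 libraries.

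Of the genes of lipolysis and fatty acid uptake 9 of 11 were tested, 3 negative and 6 positive (median 0.09). Pnpla2, the first triglyceride lipase, was at 76.7 ± 18.2 CPM in EE and 65.6 ± 11.0 CPM in NE. Cd36, a fatty acid transporter of fat, muscle and vessels, followed the members: it was at 24.4, 45.4, 24.9 and 3.65 CPM in EE 1 to EE 4, against 32.7, 54.3, 29.2 and 41.1 CPM in NE 1 to NE 4. Mgll, which cleaves the last fatty acid from glycerol, was at 31.0 ± 17.2 CPM in EE and 45.5 ± 4.30 CPM in NE, with its lowest values of 21.0 and 12.2 CPM in EE 3 and EE 4. Adrb3, the fat cell adrenergic receptor, was too low to test, at 0 to 0.957 CPM in EE and 1.31 to 2.49 CPM in NE.

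Of 15 genes of fatty acid and triglyceride synthesis 14 were tested, 8 negative and 6 positive (median −0.08). Scd1, a desaturase, was at 85.3 ± 7.75 CPM in EE and 63.5 ± 8.90 CPM in NE, without overlap. Of all tested genes 4.89% did not overlap, in either direction. Fasn, fatty acid synthase, was at 353, 366, 552 and 720 CPM in EE 1 to EE 4, against 344 to 377 CPM in NE. EE 4, which had no counts of Adipoq, thus had the highest Fasn level. Slc2a4, the insulin-responsive glucose transporter of fat and muscle, was at 13.0, 19.3, 8.76 and 1.90 CPM in EE 1 to EE 4, against 12.4 to 19.2 CPM in NE, and like the members it was lowest in EE 4.

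Of 10 transcription factors of fat cells 9 were in the table, all but Ebf2, and these 9 were tested, 5 negative and 4 positive (median −0.06). Pparg, the master regulator of fat cells that the colon epithelium also uses, was at 79.8, 74.5, 31.9 and 61.7 CPM in EE 1 to EE 4, against 64.6 to 100.3 CPM in NE. Its lowest value was thus in EE 3 and not in EE 4. Cebpa was at 25.6 ± 4.97 CPM in EE and 30.4 ± 3.88 CPM in NE, and Srebf1, which drives lipid synthesis genes, at 139 ± 29.5 CPM in EE and 109.5 ± 10.2 CPM in NE.

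Of the adipokines and their receptors 10 of 11 were tested, 8 negative and 2 positive (median −0.23). Lep, the gene of leptin, was too low to test: it was at 0.766 CPM in EE 2 and 1.86 CPM in NE 2 and at 0.663 CPM or less in the other 6 libraries, with 0 counts in EE 1, EE 4 and NE 1. Rarres2, the gene of chemerin, was at 14.8 ± 7.19 CPM in EE and 25.8 ± 3.42 CPM in NE, without overlap. It was highest in library 1 of each group, unlike Adipoq. The adiponectin receptors Adipor1 and Adipor2 were at 246 ± 28.9 and 199.9 ± 25.3 CPM in EE and 284 ± 11.0 and 238 ± 23.0 CPM in NE, and Adipor1 did not overlap between the groups either. Of all tested genes 2.02% were lower in EE without overlap and 4.89% were apart in either direction. Cdh13, which binds adiponectin at the cell surface, was at 86.4 ± 37.4 CPM in EE and 48.8 ± 9.39 CPM in NE.

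Paralogs of the members include forms made by the gut epithelium. Of 18 paralogs 14 were tested, 13 negative and 1 positive (median −0.35). Retnlb, the resistin-like protein of goblet cells, was at 105, 279, 65.4 and 79.4 CPM in EE 1 to EE 4, against 135, 317, 125 and 148 CPM in NE 1 to NE 4. Like Retn it was highest in library 2 of each group. Fabp2, the intestinal fatty acid carrier, was at 241 ± 158 CPM in EE and 392 ± 82.5 CPM in NE, and Pck2, the mitochondrial form of Pck1, at 32.3 ± 3.54 CPM in EE and 39.4 ± 4.71 CPM in NE.

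By the rule of highest Pearson correlation with the median of the 9 tested members over the 8 libraries, among 14302 other genes, the gene most like the members was Car3. Car3, a carbonic anhydrase abundant in mouse fat, was at 11.7, 70.4, 14.4 and 1.11 CPM in EE 1 to EE 4, against 16.7, 70.2, 21.9 and 44.8 CPM in NE 1 to NE 4. Its r was 0.996 (Spearman 0.976), 0.992 without EE 4 and 0.990 without EE 4 and NE 2, the libraries farthest from the median. After it came Cd69, Trim47, Rprm, Cd36, Rcsd1, Igkv1-135, Ebf1, Sh3bgrl and Zeb1, with r between 0.970 and 0.987. Only Car3 and Cd36 were also among the first 10 without EE 4, where Glb1l2, Ccl3, Cyp2e1, Nr4a3, Sync, Grik5, Adgre5 and Cd34 took the other places. These r values were picked as the highest of many over few libraries and are given as a description of likeness.

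Markers of the layers of the colon and of the tissue around it were summed per library for comparison with the members. Smooth muscle markers (10 of 10 in the table, each above 0 in all 8 libraries) summed to 697 to 4464 CPM in EE and to 3570.5 to 5759.5 CPM in NE, lowest in EE 4. Mesothelium markers, of the sheet that covers the gut and its fat (7 of 8 in the table), summed to 49.9, 44.8, 20.5 and 16.6 CPM in EE 1 to EE 4, against 33.3 to 56.2 CPM in NE. Both lists and the summed members were lowest in EE 4 and next lowest in EE 3. EE 4 was also lowest for the sums of vessel endothelium, macrophages and fat cell precursors. Among single members, Plin4 and Cidec were next lowest in EE 3, but Adipoq, Plin1 and Cfd were higher in EE 3 than in EE 1 and NE 1. EE 2 exceeded EE 1 by far less in smooth muscle (4464 against 4222 CPM) than in Adipoq, and in mesothelium it did not exceed it.

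Blood vessel endothelium (8 of 8 in the table) summed to 84.2 to 164 CPM in EE and 154 to 164 CPM in NE, a sum that was level except in EE 4. In EE 4, Cdh5 (23.9 CPM) and Flt1 (22.7 CPM) were within their NE ranges, and the remaining markers of the list were below theirs. Macrophages (8 of 8) summed to 115 to 352 CPM in EE and 253 to 299 CPM in NE. Precursors of fat cells and adventitial fibroblasts (9 of 9) summed to 562, 627, 590.3 and 429.7 CPM in EE 1 to EE 4, against 447, 614, 550.4 and 580.5 CPM in NE 1 to NE 4. The sum was highest in library 2 of each group, but Ly6a made up a large share of it. Ly6a was at 362, 395, 342 and 337 CPM in EE 1 to EE 4, against 218, 374, 319 and 351 CPM in NE 1 to NE 4. Cd34, Ly6a, Cd248 and Clec3b were highest in library 2 of each group, and Pdgfra, Dpp4, Pi16, Dlk1 and Sfrp4 were not. Within that list Sfrp4 and Clec3b had 0 counts in EE 4, where Adipoq, Plin1 and Retn were at 0 too.

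Colonocyte markers (8 of 8) summed to 4777, 6277, 1854 and 2042 CPM in EE 1 to EE 4, against 8367, 5376, 4958 and 4055 CPM in NE 1 to NE 4. Car1 made up a large share of this sum. The sum was low in EE 3 and EE 4, the libraries in which Pck1 was low. The markers were below their NE ranges in EE 3 and EE 4, except Ceacam20 in EE 4 (85.0 CPM, against 79.2 to 127 CPM in NE). The epithelium as a whole (7 of 7) was more even, with 7367 to 10781 CPM in EE and 8272 to 10973 CPM in NE. Of the brown fat list 5 of 10 genes were in the table, and the defining Ucp1, Cidea, Cox8b, Zic1 and Elovl3 were not among them. The 5 summed to 113 to 133 CPM in EE and 104 to 127 CPM in NE. The part of these cell types in the members' values was not tested.

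**Figure D4:**
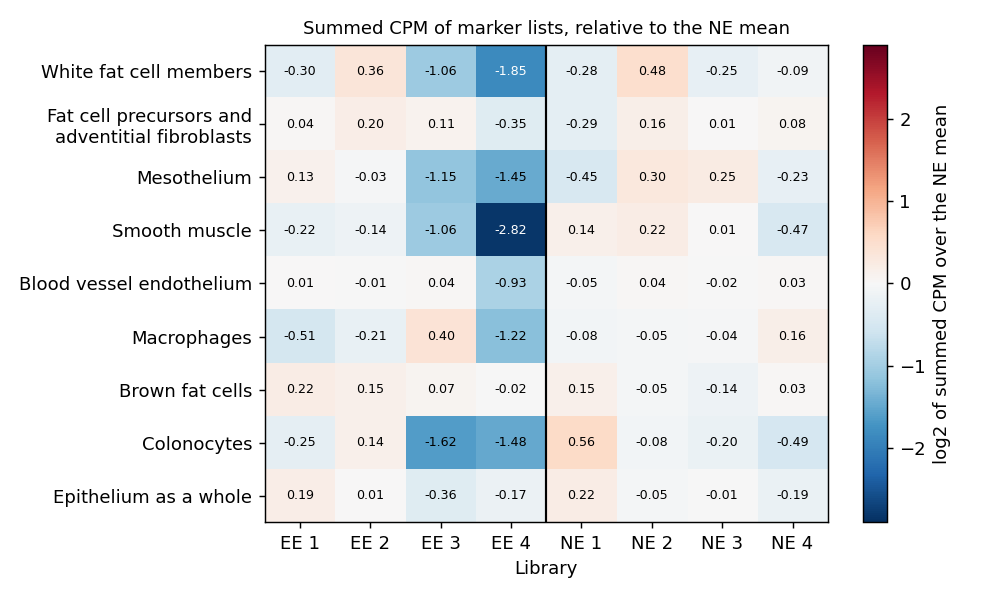
Summed CPM of the members and of 8 marker lists in each library as log2 of the ratio to the mean of the 4 NE libraries (EE left of the line, NE right of it). EE 4 is at −2.82 in smooth muscle, −1.85 in the members (−2.67 without Pck1), −1.48 in colonocytes and −1.45 in mesothelium, and the members have the highest value of the 9 lists in EE 2 (0.36) and in NE 2 (0.48).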

How the data were processed

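Per the labels' protocols, total RNA of the distal colon was depleted of ribosomal RNA, prepared with a stranded kit and sequenced from 1 end for 50 bases. The submitters' processing notes name Novoalign 2.08.01, DESeq 1.14.0 and genome build mm10; no source used here names the annotation, the counter or its strand setting. The authors deposited whole-number read counts per gene for 8 libraries, and the deposited table also holds a log2 fold change and an FDR (adjusted p-value) per gene, per the file headers. Column names match the sample titles.

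In edgeR 4.0.16 (R 4.3.3), filterByExpr kept 14311 genes, TMM scaled the libraries, which held 4735764 to 10586851 counts, and a quasi-likelihood test with robust fitting set EE against NE. P-values were adjusted by Benjamini-Hochberg over all tested genes. An SE is the log2 fold change divided by the square root of F. Log2 CPM used a prior count of 2. Alternatives were DESeq2 1.42.0 without independent filtering (9 genes without an adjusted p), limma-voom (limma 3.58.1), RLE and upper-quartile scaling, no filter, 1 CPM in at least 4 libraries, a threshold of 0.1, the replicate number as a block, and each library left out. The fits were checked on simulated data with 100 genes changed 2-fold and 100 changed 4-fold. Of the 2-fold changes edgeR recovered 65, limma-voom 60 and DESeq2 76. Of the 4-fold changes they recovered 92, 93 and 94, with 11, 8 and 39 false calls. The changed genes were drawn at random from all tested genes, whose median coefficient of variation was 0.192. Counts were simulated with no library effect shared between genes. The recovery therefore does not carry over to the members, most of which varied more.

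Coordinates and transcript lengths are those of GENCODE M21 (GRCm38, the build of mm10), which held 15948 of the 16130 identifiers. Named genes were the members, up to 4 genes of smallest p per list or those of known role in fat, and the 10 genes most like the members. Members and lists were chosen with earlier results of these data known, and the pancreatic list after values were seen.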

Additional observations from a re-analysis of the deposited data

Results flagged for a closer look

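Of 50 sets of 4 libraries examined (the 10 members and 15 lists in each group), 4 had 1 library far from the other 3 relative to the range of the set, where chance gives about 1 in 20. None was a member. Blood vessel endothelium markers summed to 84.2 CPM in EE 4, against 158 to 164 CPM in the other EE libraries, though Cdh5 and Flt1 were within their NE ranges there. Genes of triglyceride and fatty acid synthesis summed to 2976 CPM in EE 4, against 2167 to 2261 CPM in the other EE libraries. Among the EE libraries, Scd2 (1232 CPM), Fasn (720 CPM), Dgat1, Gpd1 and Acaca were highest in EE 4, and the other genes of that list were not. Genes of lipolysis and fatty acid uptake summed to 358 CPM in NE 2, against 315 to 319.9 CPM in the other NE libraries, and NE 2 was also the NE library with the most Adipoq. Macrophage markers summed to 299 CPM in NE 4, against 253 to 259.9 CPM in the other NE libraries.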

How the results depend on the processing

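No member was called with edgeR, DESeq2, limma-voom, the other scalings and filters, the threshold of 0.1, the block or any library left out; lowest adjusted p 0.098, for Plin4 without EE 2. The count of genes called was 0 with edgeR, 12 with DESeq2 and 0 to 1 with a library left out. Members with a negative log2 fold change numbered 5 to 10 and their median ran from −0.93 to −0.04 with a library left out. Signs reversed only without EE 4, for Plin1 (0.08), Fabp4 (0.22) and Lpl (0.19), and without NE 2, for Adipoq (0.30), Plin1 (0.13), Fabp4 (0.05) and Lpl (0.03). Without EE 2 the differences were −2.00 for Adipoq, −2.11 for Plin1, −0.85 for Fabp4 and −0.71 for Lpl, and 1 gene was called. The cause was not tested. With the replicate number as a block, 0 members and 0 genes were called and the median was −0.69. Deviations of same-numbered libraries correlated at 0.25, 0.01, −0.18 and −0.04, and 1 of 4 EE libraries correlated best with its own number. So few correlations cannot decide whether same-numbered libraries are paired. Members with few counts, such as Retn with 74, are limited by depth.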

Other observations

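Transcripts of the digestive enzymes made by pancreatic acinar cells were higher in EE 2, one of the pair of libraries richest in fat cell genes, than in the other 7 libraries for most of the 12 genes of the list in the table. Pnlip, pancreatic lipase, was at 0.425, 26.4, 0.302 and 0.159 CPM in EE 1 to EE 4, against 0 to 0.166 CPM in NE. Cel, the bile salt-dependent lipase, was at 18.4 CPM in EE 2 and at most 0.634 CPM in the other EE libraries, against 0 to 0.188 CPM in NE. The carboxypeptidases Cpa1 and Cpb1, the elastases Cela2a and Cela3b and the protease genes Ctrb1 and Prss2 were at 15.3, 14.9, 14.7, 6.12, 17.4 and 7.46 CPM in EE 2. None of these 6 reached 1 CPM in any of the other 7 libraries. Ctrl, another protease gene, was at 0.425, 5.55, 0.604 and 1.43 CPM in EE 1 to EE 4, against 0 to 0.717 CPM in NE. This list was drawn up after the value of Pnlip was seen among the lipase paralogs of Lpl, and the cause was not tested. NE 2, the other library rich in fat cell genes, did not share it, with 0.143 CPM of Pnlip.

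Not all pancreatic genes followed this pattern. Cela1 was at 178 to 307 CPM in EE, highest in EE 2, and at 189 to 288 CPM in NE. Clps, the cofactor of pancreatic lipase, was at 14.1 to 25.5 CPM in EE and 20.1 to 28.2 CPM in NE, highest in NE 2. Pnliprp1, a relative of Pnlip, was at 49.3, 49.2, 137 and 92.1 CPM in EE 1 to EE 4, against 30.8 to 102 CPM in NE. Its highest value was in EE 3, where members such as Plin4 and Cidec were low.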
